A study of Mus musculus with 2 samples.

Results

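Protocadherins are cadherin-repeat adhesion proteins of the neuronal surface, and 8 of their genes are described here by the C-to-U sites they carry, a readout of m6A, in nuclear RNA of mouse cortex. The genes were Pcdh1, Pcdh7, Pcdh9, Pcdh10, Pcdh17 and Pcdh19, which stand alone in the genome, and Pcdhgc3 and Pcdhac2, which belong to the gamma and alpha gene clusters on chromosome 18. They were picked by name with the contents of the site table known, so their numbers of sites are a description and not a test. Of the 17755 sites in 6929 genes of the table, 62 bore the name of 6 of these 8 genes. Pcdh19 and Pcdhac2 had 0 sites.

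The series was 1 group of 2 libraries, made from cortical nuclei of APOBEC1-YTH mice that were sorted after staining for the neuronal antigen NeuN. Mice were 10 weeks of age at the first tamoxifen dose, received 20 mg/kg every 24 hours over 5 days, and were sampled 7 days after the last dose. Both libraries share genotype and treatment, and libraries of mice without the fusion or without tamoxifen were not analysed here. The sources used here do not give the promoter that drives the fusion, the cells that express it or the number of animals behind each library. The fusion joins the cytidine deaminase APOBEC1 to a YTH domain, which binds N6-methyladenosine (m6A), so that cytidines near m6A can be converted to uridine. Each site is a cytidine that the authors called as converted, and whether the fusion or another C-to-T difference gave a call was not tested. The editing level of a site is the percentage of reads that the authors list as converted.

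The table gives 1 editing level per site for both libraries together. No coverage and no value per library is in it, so the depth is unknown, no spread between libraries can be given, and no comparison below carries a test. Every SD is a spread across sites of a gene, which share the RNA and the libraries and are not replicates. Levels run from 1% upwards, so a gene with 0 sites may hold edited cytidines below that level or too few reads. Fewer molecules of an RNA and less methylation of it cannot be told apart.

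Clustered protocadherins are encoded in 3 tandem arrays, alpha, beta and gamma. In the alpha and gamma arrays each gene supplies a large variable exon with its own promoter, which encodes the cadherin repeats and the membrane segment, and which is spliced to a set of constant exons common to the array. Neurons choose different sets of these isoforms, and the matching of like isoforms between membranes is known for its part in self-avoidance of dendrites. Non-clustered protocadherins have their own cytoplasmic tails. Several of them recruit actin regulators such as the WAVE complex, and Pcdh19 is known as a gene of epilepsy in humans.

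The sorted nuclei were checked against marker genes first. Sites were found in 4 of 10 pan-neuronal markers (Mapt, Map2, Syt1 and Snap25) and 0 in Rbfox3, which encodes NeuN. Of the other markers, 7 of 10 for astrocytes, 9 of 10 for oligodendrocytes, 3 of 3 for their precursors, 4 of 5 for microglia and 6 of 6 for endothelial cells and pericytes carried a site. Among all protein-coding genes of the RefSeq table, 28.2% carried a site. The pan-neuronal markers held 15 sites together. Those of astrocytes held 184, of oligodendrocytes 56, of their precursors 26, of microglia 20, and of endothelial cells and pericytes 57. Markers of each other cell type thus held more sites than those of neurons. The part of those cells in the protocadherin sites was not tested.

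All 6 genes with sites carried several of them. The numbers were 14 in Pcdh10, 13 in Pcdhgc3, 12 in Pcdh9, 9 in Pcdh17, 8 in Pcdh1 and 6 in Pcdh7. Among all genes of the table the median was 2 sites, and 13.5% had 5 or more. At least as many sites as Pcdh10 were found in 71 of the 6929 genes (1.02%), and at least as many as Pcdhgc3 in 89 (1.28%). For Pcdh1 and Pcdh7, with the fewest sites of the 6, these were 349 (5.04%) and 665 genes (9.6%). The editing levels were ordinary. Their median over the 62 sites was 3.38% (quartiles 1.97% and 7.81%), against 3.64% (2.01% and 6.90%) over all sites. Levels of 10% or more were reached by 12 of the 62 sites (19.4%), against 14.9% of all sites.

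**Figure D1:**
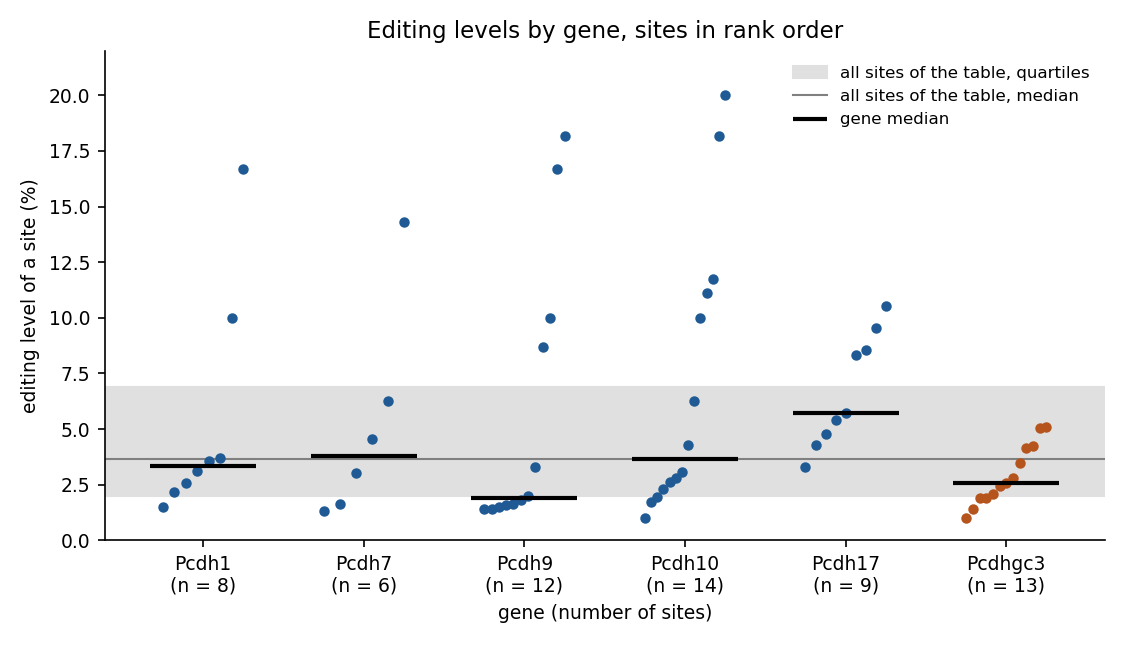
Editing level (%) of every site in the 6 genes, each dot a site, ranked within its gene; black bars are gene medians, and the grey band and line are the quartiles and median of all 17755 sites. Pcdhgc3 (orange) ends at 5.08%, while each of the 5 non-clustered genes (blue) has at least 1 site at 10% or more.

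Pcdh10, a non-clustered protocadherin that recruits the WAVE complex to the membrane, lies on the plus strand of chromosome 3 (45378398 to 45434579, assembly GRCm38.p6) and had the most sites. Its 7 sites in the first 3 kb, from 0.274 to 2.652 kb past the start, were edited at 1.96%, 4.27%, 2.63%, 3.08%, 1.72%, 1% and 2.82%, in order of position. All 7 thus stayed under 5%. A second group of 5 sites lay 41.035 to 43.02 kb from the start, at 2.30%, 11.8%, 18.2%, 6.25% and 10.0%. The last 2 sites were at 11.1% (position 45432644) and 20.0% (position 45434548), the latter 31 bases before the end of the span and the highest level of any protocadherin site. Levels of 10% or more were found in 5 of the 14 sites, and none of those 5 lay in the first group.

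Pcdh9 spans 879135 bases on the minus strand of chromosome 14 (93013700 to 93892834), and its sites fell apart in the same way. The 8 sites nearest the start, 2.492 to 7.004 kb from it, had levels of 1.61%, 1.43%, 1.64%, 2.00%, 1.83%, 3.28%, 1.39% and 1.50%, in the direction of transcription. Of these, 7 sites lay within a stretch of 1500 bases, and a pair at positions 93887102 and 93887111 was 9 bases apart. The 3 sites in the last 2 kb were at 8.70%, 16.7% and 18.2% (positions 93015214, 93015178 and 93014839). A lone site between them, 313.171 kb before the end, was at 10.0%. No level of the first group reached that of any other site of the gene, and the gene's mean of 5.69% ± 6.22 (SD, n = 12 sites) therefore lay far above its median of 1.92%.

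Pcdh7, which is also known as a partner of protein phosphatase 1, spans 417092 bases on the plus strand of chromosome 5 (57716145 to 58133236). Its 3 sites near the start (4.084 to 4.542 kb from it) were at 1.31%, 3.03% and 4.55%. A site 197.017 kb from the start was at 1.65%, and the 2 sites near the end, 2.62 and 2.137 kb before it, were at 14.3% and 6.25%. The 2 terminal levels again lay above all 4 others.

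Pcdh17, a protocadherin of synapses and growing axons, lies on the plus strand of chromosome 14 (84443563 to 84537565). The 5 sites in its first 5 kb were at 9.52%, 4.76%, 5.41%, 3.28% and 8.57%, a site 33.781 kb from the start was at 4.29%, and the 3 sites in the last 5 kb were at 5.71%, 10.5% and 8.33%. Here both ends overlapped in level. Its 9 sites were the most even of the non-clustered genes (6.71% ± 2.57, SD across sites), with the highest gene median of the 6 (5.71%), and 0 of them were under 2%, where 24.6% of all sites of the table lay.

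Pcdh1, the shortest of the non-clustered genes here, spans 26135 bases on the minus strand of chromosome 18 (38185914 to 38212048), close to the clusters but outside them. Its 5 sites in the middle of the span, 11.102 to 13.171 kb before the end, were at 2.17%, 3.57%, 2.56%, 10.0% and 3.12%, in the direction of transcription. The 3 sites in the last 5 kb were at 1.49%, 16.7% and 3.70%. It had 0 sites in its first 10 kb, and high and low levels stood side by side in both parts.

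**Figure D2:**
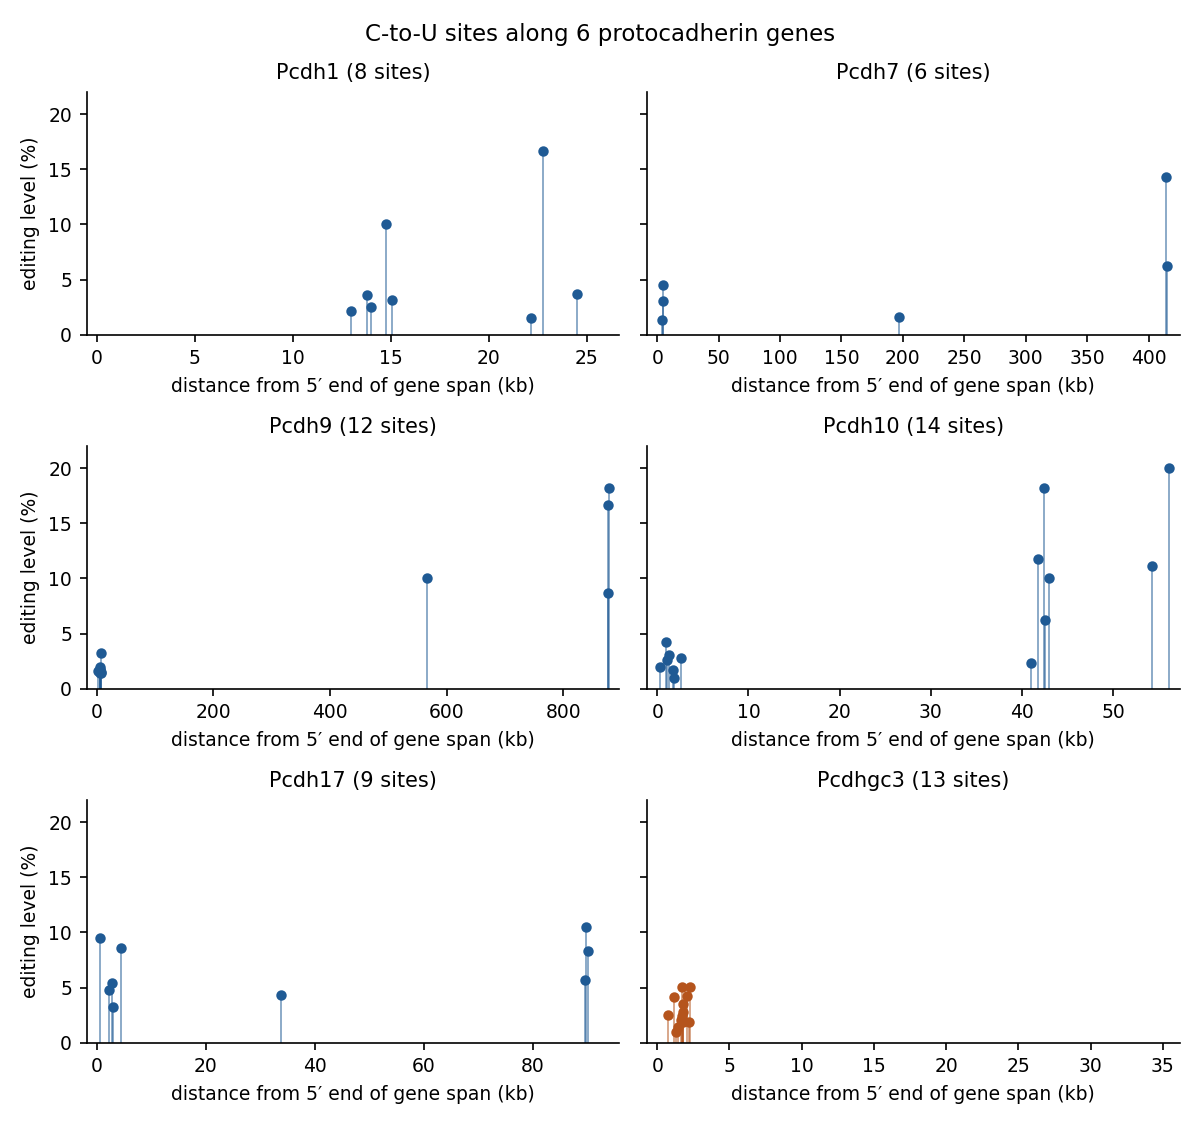
Editing level (%) of each site against its distance from the 5′ end of the gene span (kb; RefSeq spans, introns included), 1 panel a gene; each dot with its line is a site. In Pcdh9 and Pcdh10 the sites near the start lie under 5% and those in the last 10 kb lie between 8.70% and 20.0%. All sites named Pcdhgc3 crowd into the first 2.26 kb.

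The difference between the ends was then set beside that of other genes, with the windows of 10 kb chosen after the values had been seen. Of the 8 genes, 4 had sites in both the first and the last 10 kb of the span, and in each of them the median level was higher in the last 10 kb. The difference was 15.0 percentage points in Pcdh9 (1.63% over 8 sites against 16.7% over 3), 12.9 in Pcdh10 (2.63% over 7 against 15.6% over 2), 7.24 in Pcdh7 (3.03% over 3 against 10.3% over 2) and 2.92 in Pcdh17 (5.41% over 5 against 8.33% over 3). Only genes with a span of at least 2 times the window were taken. Among the 541 such genes with sites at both ends, 68.8% were higher in the last 10 kb, so the direction in the 4 protocadherins was that of most genes. Many of the 541 had a single site in a window, against 8 and 7 first sites in Pcdh9 and Pcdh10, so the medians compared rest on unlike numbers of sites. The median difference over those 541 genes was 1.27 points (quartiles -0.48 and 4.14), and Pcdh9, Pcdh10 and Pcdh7 lay above the upper quartile. In all, 5 genes had a difference at least as large as Pcdh9, itself included, and 13 one at least as large as Pcdh10. With windows of 20 kb the last part of Pcdh10 held 7 sites at a median of 11.1%, its difference was 8.48 points and 41 genes had one at least as large. With windows of 5 kb the differences were 15.1 in Pcdh9 (over 1 and 3 sites) and 12.9 in Pcdh10, and those of Pcdh7 and Pcdh17 were the same at all 3 widths. Since the table gives no coverage, editing level and read depth along these genes cannot be told apart.

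**Figure D3:**
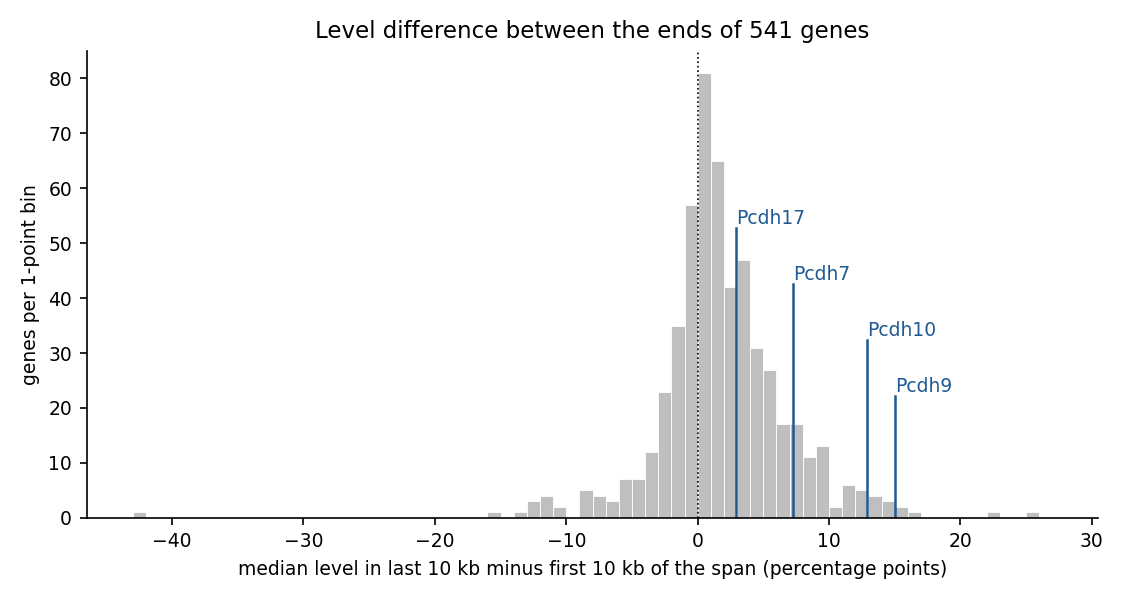
Number of genes (1-point bins) by the median editing level in the last 10 kb minus that in the first 10 kb of the span (percentage points). Shown are the 541 genes with a span of 20 kb or more and sites in both. Blue lines mark 4 protocadherin genes, and their heights carry no value. Pcdh17 (2.92) lies inside the bulk of the genes, while Pcdh10 (12.9) and Pcdh9 (15.0) lie in the upper tail.

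Over all listed levels, more of the protocadherin sites lay near the start of the gene than near its end, which rested on sites of low level. Of the 62 sites, 36 (58.1%) lay in the first 10 kb of the span, 13 (21.0%) in the last 10 kb and 13 in between. Of those 36, 13 were named Pcdhgc3 and 0 Pcdh1. Among the 22 sites of at least 5% the order was turned, with 5 in the first and 11 in the last 10 kb, and among the 12 of at least 10% it was 0 and 7. In all genes with a span of 20 kb or more, sites of every listed level were counted. Of these, 11.7% lay in the first and 51.7% in the last 10 kb. Their shares at 5% or more and at 10% or more are not given here. Whether the turn was particular to protocadherins was not tested. The same 13 sites (21.0%, exact 95% interval 11.7% to 33.2%, counting error only) were in the last 5 kb, against 49.7% of all sites inside their gene spans. The interval takes sites as independent, which sites of a gene are not, so it is no test of that difference. The share rested in part on Pcdhgc3, where all 13 sites of that name lay near the start. Another 6 sites, named Pcdhga1, lay inside the Pcdhgc3 span near its end and were not counted here. They cannot be given to a single gamma gene. Among the non-clustered genes 13 of 49 (26.5%) were in the last 5 kb.

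Pcdhgc3 encodes a C-type gamma isoform, which is made in most neurons rather than chosen at random. The gene spans chromosome 18 from 37806410 to 37841873 on the plus strand, and its 13 sites lay between 0.777 and 2.26 kb from the start, in a stretch of 1483 bases. In order of position the levels were 2.56%, 4.17%, 1%, 1.39%, 2.08%, 5.06%, 2.44%, 2.78%, 3.48%, 1.89%, 4.26%, 1.89% and 5.08%. No site reached 10%, and the mean was 2.93% ± 1.36 (SD across sites). Each of the 13 sites lay inside 20 of the 22 gamma spans, which include introns. Whether all of them belong to Pcdhgc3 RNA was not tested. Another site of the gene lay within 100 bases for 10 of the 13 sites, against 12 of 49 (24.5%) in the non-clustered genes and 23.3% of all sites inside spans.

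The comparison of the non-clustered with the clustered genes was thus one of 5 genes with 49 sites against 1 gene with 13 by name. Non-clustered genes had 6 to 14 sites each (9.8 per gene) and a median level over sites of 3.70%, and Pcdhgc3 had 13 sites at a median of 2.56%. With sites of at least 5% the order by number turned, to 4 sites per non-clustered gene and 2 in Pcdhgc3. The 2 ranges overlapped: levels ran from 1% to 20.0% in the non-clustered genes and from 1% to 5.08% in Pcdhgc3. The medians of 1.92% in Pcdh9 and 5.71% in Pcdh17 lay on either side of that of Pcdhgc3. With all protocadherin genes of the table the medians were nearer, 3.99% over 50 non-clustered and 3.64% over 38 clustered sites.

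The wider family showed how uneven the sites were. Of 12 non-clustered genes, 6 had a site; the sixth was Pcdh15, a protein of the tip links of hair cells, with 1 site at 16.7% (chromosome 10, position 74326202). Pcdh8, Pcdh11x, Pcdh12, Pcdh18, Pcdh19 and Pcdh20 had 0. Of 58 clustered genes, 14 had a site (24.1%), against 28.2% of all protein-coding genes in the RefSeq table. The alpha cluster had 0 of 14 genes with a site. Its whole stretch of chromosome 18 (36930285 to 37188897), which contains Pcdhac2, held 0 sites of any name on either strand. The beta cluster, whose genes have no common constant exons, had 3 of 22, with 1 site each in Pcdhb14 (6.90%), Pcdhb16 (5.56%) and Pcdhb17 (8.33%). The gamma cluster had 11 of 22. Genes of these arrays resemble each other, and reads could be split between them, so the name a site carries is uncertain for beta and gamma genes.

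Within the gamma cluster, the gene named for a site depended on where the site lay. Of 35 gamma sites, 29 were 233 to 2715 bases past the start of the gene they were named for, with no other gamma start in between. Besides Pcdhgc3 these were 16 sites in 9 genes at a median of 4.48% (1.41% to 14.3%). Pcdhgb1 had 3 (6.25%, 8.33% and 13.3%), Pcdhga3 2 (6.67% and 11.1%), Pcdhga7 2 (3.03% and 14.3%), Pcdhgb2 2 (2.74% and 4.08%), Pcdhga8 2 (2.60% and 1.41%) and Pcdhgb8, annotated as a transcribed pseudogene, 2 (3.17% and 4.88%). Pcdhga5 had 1 (5.88%), Pcdhga4 1 (3.85%) and Pcdhgc5 1 (3.08%). By name, most gamma genes with a site thus had 1 or 2, and Pcdhgc3 alone more than 6. Each of the 29 sites lay inside several gamma spans, from 3 for the sites named Pcdhga3 to 22 for that named Pcdhgc5.

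The other 6 gamma sites were named Pcdhga1, the first gene of the array, but lay at least 178.597 kb from its start. They were 95 to 1498 bases before the end of its span, where all gamma spans end close together, and each lay inside the spans of 21 or 22 of the 22 gamma genes. Their levels were 1.94%, 5.32%, 2.00%, 1.41%, 2.02% and 3.80% in order of position (2.75% ± 1.50, SD across sites). These 6 sites cannot be given to a single gene. The span of Pcdhgb8 ends at 37840489, before 3 of them, and the span of Pcdhgc3 contains all 6.

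**Figure D4:**
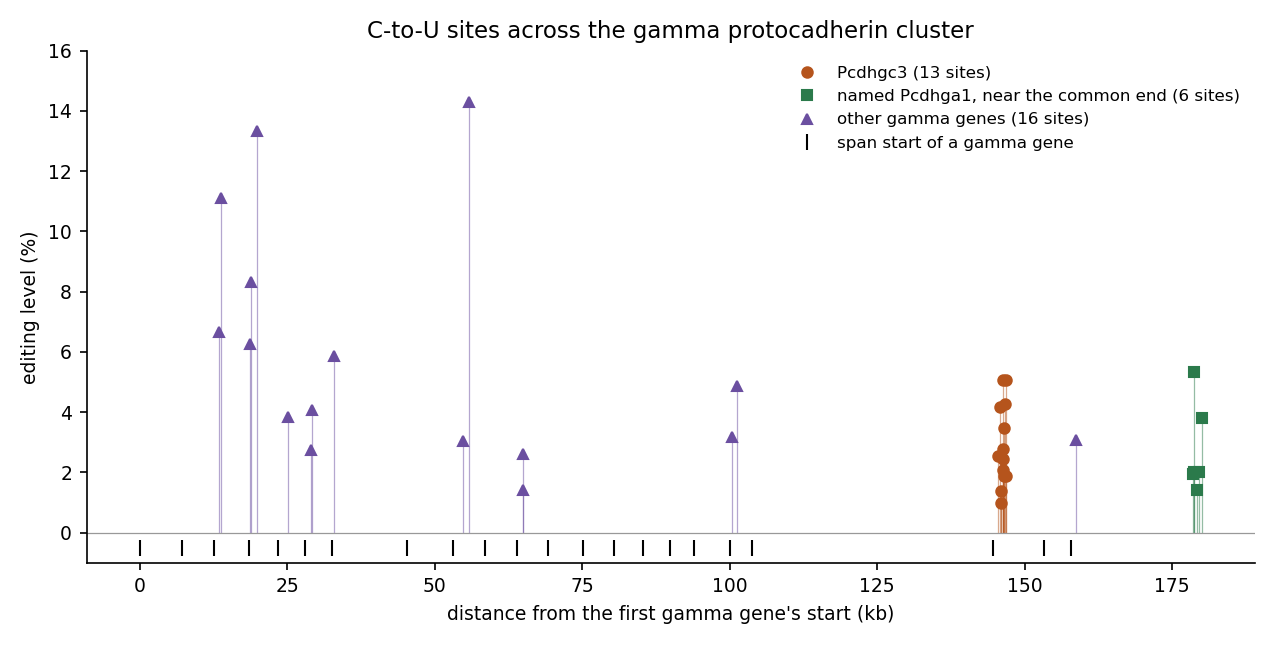
Editing level (%) of the 35 sites named for gamma genes against distance from the start of the first gamma gene (kb); ticks under the axis mark the start of each of the 22 gamma spans. The 13 Pcdhgc3 sites (orange) stand 145.412 to 146.895 kb from that start, and the 6 sites named Pcdhga1 (green) stand at 178.597 to 180.0 kb, next to the common end.

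On the opposite strand of the cluster region, 9 sites carried 4 other names. Among them 3 sites named BC037039 (positions 37807547, 37807568 and 37807692, at 1.29%, 1.10% and 1.01%) fell among those of Pcdhgc3, 37 to 58 bases from the nearest. The other 6, named Gm26672, Gm37118 and Gm37165, lay between 4.35% and 10.5%. The library kit keeps strand, but the sources used here do not give whether the authors used it in assigning sites. Seen from the opposite strand, a C-to-U call reads as G-to-A. As listed, the 3 sites are thus not C-to-U calls in Pcdhgc3 RNA, though the base at these sites was not checked. They lay in no RefSeq span of their own name, so their gene is uncertain. The gene of the Pcdhgc3 sites is uncertain for another reason, as each lay inside 20 gamma spans.

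Relatives and partners of the protocadherins were described from lists. Among giant cadherins, 6 of 9 genes had a site, with 32 in Fat3 (median 2.31%), 19 in Fat1 (2.78%), and 10 each in Fat4 (8.12%) and the seven-pass cadherin gene Celsr2 (4.02%). Of 23 genes named Cdh with a number, 6 had a site (26.1%), led by the endothelial cadherin gene Cdh5 with 7 (4.26%), Cdh11 with 6 (7.06%) and the N-cadherin gene Cdh2 with 5 (3.95%). Only Clstn1, a calsyntenin, had sites (10, median 2.66%) among 15 other genes with cadherin repeats. Fat3 and Fat1 thus had more sites than Pcdh10, and no Cdh gene had more than 7.

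Of 17 cytoplasmic partners, 13 had a site (76.5%), with 6 in Set and 4 each in Wasf2, Abi2, Ptk2 and Wasf3. Wasf2, Wasf3 and Abi2 encode parts of the WAVE complex, and Ptk2 encodes focal adhesion kinase. Among 5 genes of the proteases that cleave protocadherins, 4 had a site, with 6 in the sheddase gene Adam10 (median 4.61%) and, among gamma-secretase genes, 2 in Ncstn (4.35%), 1 in Psenen (16.7%) and 1 in Psen2 (8%). Of 13 regulators of promoter choice in the clusters, 11 had a site, with 8 in the cohesin loader gene Nipbl (median 2.53%), 6 in the cohesin release gene Wapl (2.89%), 4 in Stag1 and 4 in the DNA methyltransferase gene Dnmt3a. Beside the 28.2% of protein-coding genes with a site, shares were high in these 3 lists, but the lists are of genes known to be expressed in brain and the comparison group was not limited to such genes. None of these genes other than the giant cadherins and Clstn1 reached the 9 sites of Pcdh17.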

How the data were processed

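The 2 libraries were prepared with a strand-keeping kit for small amounts of total RNA, per the labels' protocols, although another label field names polyA RNA. Sites were called with Bullseye, per the labels' series text. Alignment with STAR 2.7.5 and the build mm10 are per the submitters' processing notes. The sources used here do not give the Bullseye settings, its control, a coverage minimum or how both libraries were joined. The authors deposited the editing level of each site as a fraction of reads, which was multiplied by 100. The table has no depth, so no precision of a level can be given.

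Gene names were matched by symbol to a RefSeq table of GRCm38.p6, the assembly named mm10. It gives gene spans, not exons, so sites could not be placed in coding sequence, UTR or intron, and it holds all 8 genes. All 62 sites lay inside their spans. Positions are 1-based. In a check, all 160 sites that fell in RefSeq promoter sequences stood on a C of their strand. None of those was a protocadherin site, so no sequence around these sites is shown.

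Distances, medians and counts were computed with Python 3.11.15 and pandas 2.3.3, exact (Clopper-Pearson) intervals with SciPy 1.17.1, after testing distances on simulated data. No test was run, because the table holds a single group and the genes, lists and windows were chosen with earlier results of these data known. All 8 genes and every protocadherin gene with a site are named, and up to 4 genes with most sites per further list. Wasf3 is named in addition, as it tied at 4 sites. The protease list was used without 1 gene, which is not reported here.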

Additional observations from a re-analysis of the deposited data

How the results depend on the processing

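No paired analysis was possible because the table holds 1 group and no value per library, and for the same reason no library could be left out. Of 46 recomputed values, 22 stayed within 1.5 times or the exact interval, 21 moved further and 3 reversed. The reversed ones, added after the data were seen, were the difference in sites per gene, non-clustered minus Pcdhgc3 (-3.2 over all sites, -1.6 at 2% or more, 2 at 5% or more), and the share in the first minus that in the last 10 kb (37.1 points over all sites, 21.7 at 2%, -27.3 at 5% and -58.3 at 10% or more). With sites of at least 5% the 62 sites became 22, their median 10.0%, the sites per gene 4 (non-clustered) and 2 (Pcdhgc3), and the share in the last 5 kb 50.0%. With at least 10% they became 12 sites, 13.0%, 2.4 per non-clustered gene and 58.3%, and Pcdhgc3 had none. The share in the last 2 kb was 9.68%. The mean over sites was 5.45% and the median of gene means 5.55%. The non-clustered minus Pcdhgc3 difference of 1.14 points was 2.23 with sites of at least 2%, 4.93 with at least 5%, 2.76 between medians of gene means, 1.73 without Pcdh1 or without Pcdh9, 0.54 without Pcdh17, and 0.345 over all protocadherin genes, which was chosen after the data were seen.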
